A study of Rattus norvegicus with 6 samples.

Results

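The thin filament genes of the rat heart were examined as a group of 10: the sarcomeric actins Actc1 and Acta1, the troponin subunits Tnnt2, Tnni3, Tnni1 and Tnnc1, the tropomyosins Tpm1 and Tpm2, and the pointed-end proteins Lmod2 and Tmod1. They were taken by symbol from a table of 28293 genes and each of the 10 had 1 row. There were 3 samples of sham rat myocardium and 3 samples of myocardium with ischemia/reperfusion injury (MI/RI), for which the left anterior descending coronary artery was tied for 30 min and then released for 6 h. All rats were male and labelled wild type, and the labels give the sham rats the same 30 min and 6 h. The strain, the age, the region of the heart and whether each sample was 1 animal are not given in the sources used here, so that the p-values cover the spread between these samples.

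The thin filament is the actin rail on which myosin pulls. Tropomyosin lies along the actin strand and hides the myosin sites at rest, and the troponin complex moves it aside when calcium binds to troponin C, whereas troponin I holds the resting state and troponin T ties the complex to tropomyosin. Tropomodulin caps the pointed end of the filament and leiomodin elongates it, and together they help to set its length. In the adult ventricle Actc1, Tnni3, Tnnt2, Tnnc1 and Tpm1 are the usual cardiac forms. Acta1 and Tnni1 are used more in the fetal heart and in skeletal muscle, and Tpm2 is abundant in smooth and slow skeletal muscle.

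The libraries differed before any gene was considered. Values are FPKM (fragments per kilobase of gene, scaled to library size), which allow levels to be compared between genes. Mitochondrially encoded mRNAs took 80.1% to 86.2% of the summed FPKM in sham and 61.8% to 71.5% in MI/RI. Relative depth, read from the steps of the lowest values and set to 1 in sham replicate 1, ran from 0.873 to 1.18. Sham replicate 1 stood apart from the other sham samples in muscle genes, with Myh7, the slow myosin heavy chain, at 7.98 times their mean and Nppa, the atrial natriuretic peptide, at 8.99 times. MI/RI replicate 1 also stood apart in its group, with Nppa at 78.4 FPKM against 9.81 and 6.69, Nppb at 160 FPKM against 30.4 and 8.09, and the lowest mitochondrial share (61.8%). Without MI/RI replicate 1, 8 of the 10 thin filament genes were still higher in MI/RI, and the median of the 10 log2 fold changes was 1.94. In that fit 2047 of all 10911 genes tested were higher and 603 were lower, with a median of 0.21. MI/RI replicate 3 held 133 FPKM of Myl7, the atrial regulatory light chain, against 0.905 to 3.57 in the other 5 samples. Skeletal muscle markers summed to between 0.788 and 4.21 FPKM in the 6 samples, and Myh4 was listed at 0 in all of them.

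Both sarcomeric actin promoters are shown because their genes had the highest log2 fold changes among the 10, and because the CArG box, to which serum response factor (SRF) binds, is the motif best known in actin genes. The windows are 300 bases from RefSeq on the rat build GRCr8, from 250 before the annotated start, and they were found for 9 of the 10 genes (Tnnc1 was not matched). Capitals mark the CArG box and, in Acta1, also the TATA box. The Actc1 window is chr3:121271778-121272077 and the Acta1 window is chr19:68784145-68784444, both on the minus strand and printed 5′ to 3′.
Actc1: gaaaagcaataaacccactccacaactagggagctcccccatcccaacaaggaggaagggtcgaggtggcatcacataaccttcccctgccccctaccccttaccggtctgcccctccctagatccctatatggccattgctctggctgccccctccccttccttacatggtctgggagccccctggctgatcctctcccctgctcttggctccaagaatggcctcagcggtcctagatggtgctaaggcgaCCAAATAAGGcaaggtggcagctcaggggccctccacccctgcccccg
Acta1: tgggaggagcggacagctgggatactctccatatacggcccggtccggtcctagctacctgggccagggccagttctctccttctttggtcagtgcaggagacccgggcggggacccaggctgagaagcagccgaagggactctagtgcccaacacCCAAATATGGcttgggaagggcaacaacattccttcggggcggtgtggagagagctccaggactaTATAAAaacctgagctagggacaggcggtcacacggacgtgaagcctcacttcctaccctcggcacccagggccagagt
A CArG box on either strand was found in 548 of 33469 promoters of this length (1.64%). Among the thin filament genes it was in the windows of Actc1, from base 3 to base 12 after the annotated start, and of Acta1, starting 94 bases before it. The TATA box, searched as TATAAA on both strands, was in 14.2% of all promoters and in Acta1, 29 bases before the start. The M-CAT motif, the site of TEAD factors, searched as CATTCC on both strands, was also in 14.2% and was found in Acta1, Tnnt2 and Tpm1. The MEF2 motif was in 3.29% of promoters and in none of the 10 windows of these genes (Tnnt2 has 2 windows). None of these motifs overlapped another in the Actc1 and Acta1 windows, and a match is a run of letters in this window and not a measured site.

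The question here was whether thin filament mRNAs differed between sham and MI/RI myocardium, and whether the members of the filament moved together. Of the 10 genes, 8 were higher in MI/RI, none was lower (also at an unadjusted p of 0.05), and Tnni1 and Tpm2 did not pass the test (limma on log2(FPKM + 0.1), adjusted p of 0.05 over 10942 genes with a mean of at least 0.5 FPKM, a filter that all 10 passed). Centred instead on cardiomyocyte genes outside the sarcomere, 1 of the 10 was higher and 1 was lower. On that scale 46 of all 10942 genes tested were higher and 8958 were lower. Without this centring, 25.5% of all genes tested were higher and 7.36% were lower by the same rule. In the same 8 genes every MI/RI sample lay above every sham sample, which held for 37.2% of all genes tested. The median log2 fold change was 2.24 for the 10 genes and 0.29 for all genes tested. Each of the 8 had an exact permutation p of 0.1, which is the smallest that 3 samples against 3 allow. In bulk tissue, more or fewer cells of a type cannot be told apart from more or less RNA in each cell.

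**Figure D1:**
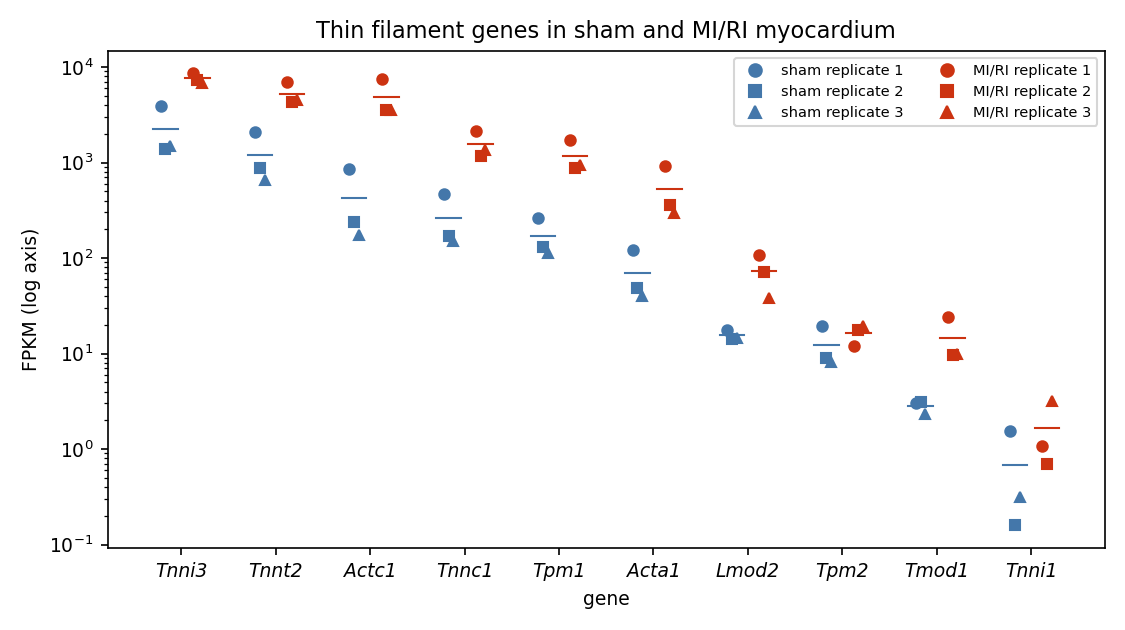
FPKM of the 10 thin filament genes in the 6 samples (logarithmic axis, blue for sham, red for MI/RI, one symbol shape for each replicate number, bars for group means). In 8 genes the red points all lie above the blue ones, whereas those of Tnni1 and Tpm2 overlap, and sham replicate 1 is the highest sham sample in 9 of the 10 genes.

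The cardiac actin gene Actc1, which encodes the main actin of the adult heart muscle filament, had the largest difference of the 10. The gene (ENSRNOG00000008536) was at 848, 239 and 174 FPKM in sham and at 7449.9, 3588.5 and 3532 FPKM in MI/RI. The lowest MI/RI sample was 4.17 times the highest sham sample. The means were 420.5 ± 372 and 4857 ± 2246 FPKM (SD, n = 3), an 11.6-fold difference, and the log2 fold change was 3.79 (SE 0.55, limma adjusted p = 0.0029). Only 0.247% of the genes tested had a higher log2 fold change. Without sham replicate 1, in which Actc1 was 4.10 times the mean of the other sham samples, the log2 fold change was 4.48 (limma adjusted p = 0.00034).

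The skeletal actin gene Acta1 (ENSRNOG00000017786), expressed in the heart before birth and under load, rose as well and from a lower level. Its values were 122, 48.5 and 40.1 FPKM in sham and 922, 357 and 298 FPKM in MI/RI, with no overlap. The log2 fold change was 2.90 (SE 0.50, limma adjusted p = 0.0043). Within each sample, the ratio of Acta1 to Actc1 was 0.143, 0.202 and 0.230 in sham and 0.124, 0.0995 and 0.0842 in MI/RI. Every MI/RI ratio was below every sham ratio, so skeletal actin mRNA was a smaller part of the sarcomeric actin pair after reperfusion (1.86-fold lower on the mean log2 scale, exact permutation p = 0.1, adjusted p = 0.16 over the 8 ratios tested here). The coding sequences of the muscle actins are nearly identical, and how reads shared between them were counted is not stated, so the values of each actin are uncertain to that extent.

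Cardiac troponin T, the tropomyosin-binding subunit, was among the most abundant of these mRNAs. Tnnt2 (ENSRNOG00000033734) was at 2076, 877 and 662 FPKM in sham and at 6945, 4341 and 4558.5 FPKM in MI/RI. All MI/RI samples were above the sham samples, and the log2 fold change was 2.28 (SE 0.42, limma adjusted p = 0.0052). Cardiac troponin I, the inhibitory subunit, had the highest level of the 10 in every sample. Tnni3 (ENSRNOG00000018250) was at 3899.8, 1373 and 1501 FPKM in sham and at 8589, 7329 and 6867 FPKM in MI/RI. It had the smallest log2 fold change of the 8 genes that rose (1.92, SE 0.40, limma adjusted p = 0.0076), and this is the gene that lost its call when no filter on low values was used (limma adjusted p = 0.078).

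Troponin C, the calcium sensor shared by heart and slow muscle, rose too. Tnnc1 (ENSRNOG00000018943) was at 467, 169.6 and 149.7 FPKM in sham and at 2157, 1169.9 and 1364 FPKM in MI/RI, with a log2 fold change of 2.73 (SE 0.44, limma adjusted p = 0.0035). The Tnnc1 to Tnni3 ratio was 0.1198, 0.123 and 0.0997 in sham and 0.251, 0.160 and 0.199 in MI/RI. These ratios did not overlap between the groups and were 1.75-fold higher in MI/RI (exact permutation p = 0.1, adjusted p = 0.16 over 8 ratios). The Tnnt2 to Tnni3 ratio ranged from 0.441 to 0.639 in sham and from 0.592 to 0.809 in MI/RI, and these ranges overlapped (exact permutation p = 0.2, adjusted p = 0.27 over 8 ratios).

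Slow skeletal troponin I, which the heart replaces with the cardiac form after birth, had the lowest level of the 10. Tnni1 (ENSRNOG00000009073) was at 1.55, 0.159 and 0.313 FPKM in sham and at 1.08, 0.692 and 3.20 FPKM in MI/RI. The steps of the FPKM values correspond to 74, 9 and 17 fragments in sham and to 45, 31 and 135 in MI/RI, as the smallest whole numbers that match them. The groups overlapped, since sham replicate 1 exceeded 2 of the 3 MI/RI samples, and the log2 fold change of 1.38 (SE 0.70) did not pass the test (limma adjusted p = 0.15, exact permutation p = 0.3). Without sham replicate 1 it was 2.15 and passed (limma adjusted p = 0.027), and without MI/RI replicate 3 as well it was 1.56 and did not (limma adjusted p = 0.054). MI/RI replicate 3, with the highest Tnni1, is also the sample with the high Myl7, and over the samples the 8 atrial markers summed to 9.34 to 75.4 FPKM in sham and to 20.3 to 149 FPKM in MI/RI, with 1 of the 5 tested higher in MI/RI (none when centred on cardiomyocyte genes, with 3 lower). So centred, 8958 of all 10942 genes tested were lower. The part of atrial tissue in the Tnni1 values was not tested.

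Alpha-tropomyosin, the main tropomyosin of the rodent heart, rose. Tpm1 (ENSRNOG00000018184) was at 266, 132 and 113 FPKM in sham and at 1715, 869 and 936 FPKM in MI/RI. The log2 fold change was 2.82 (SE 0.38, limma adjusted p = 0.0026), and the lowest MI/RI sample was above the highest sham sample. This row sums all transcripts of the gene, which also makes smooth muscle and non-muscle forms by splicing.

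Beta-tropomyosin did not pass the test. Tpm2 (ENSRNOG00000016731) was at 19.5, 9.01 and 8.14 FPKM in sham and at 11.9, 17.8 and 19.5 FPKM in MI/RI. Sham replicate 1 and MI/RI replicate 3 were alike, and MI/RI replicate 1, in which the other sarcomeric tropomyosin was highest, had the lowest Tpm2 of its group. The log2 fold change was 0.50 (SE 0.35, limma adjusted p = 0.29, exact permutation p = 0.3). Without sham replicate 1 it was 0.90 and passed the test (limma adjusted p = 0.037), and with MI/RI replicate 3 left out too it was 0.76 and did not (limma adjusted p = 0.11). Its sign depended on the scaling, with -0.14 after quantile normalization and -0.27 after rescaling to the genes outside the mitochondrially encoded mRNAs.

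The Tpm2 to Tpm1 ratio, in which a common scaling factor of a sample cancels, separated the groups. It was 0.0735, 0.0685 and 0.0723 in sham, a narrow range that included sham replicate 1, and 0.00691, 0.0205 and 0.0209 in MI/RI. The ratio was 4.97-fold lower in MI/RI (exact permutation p = 0.1, adjusted p = 0.16 over 8 ratios).

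Smooth muscle markers were set beside Tpm2 because this gene is abundant in vessel walls. Acta2, smooth muscle actin, was at 104, 31.1 and 22.0 FPKM in sham and at 35.8, 82.3 and 118 FPKM in MI/RI. Tagln, the smooth muscle protein transgelin, was at 118, 40.9 and 29.6 FPKM in sham and at 33.8, 102 and 141 FPKM in MI/RI. Acta2 put the 6 samples in the same order as Tpm2, and in Tagln only MI/RI replicate 1 and sham replicate 2 changed places. The summed FPKM of 7 smooth muscle markers, with Des set aside because cardiomyocytes express it, was 294, 103 and 71.7 in sham and 112, 234 and 322 in MI/RI. As a description over the 6 samples, the root mean square distance between the centred log2 profile of Tpm2 and that of the smooth muscle list was 0.224, against 0.947 for cardiomyocyte genes outside the sarcomere. Smooth muscle was the nearest of 7 lists for Tpm2 and for none of the other 9 genes. The part of smooth muscle in the Tpm2 values was not tested.

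**Figure D2:**
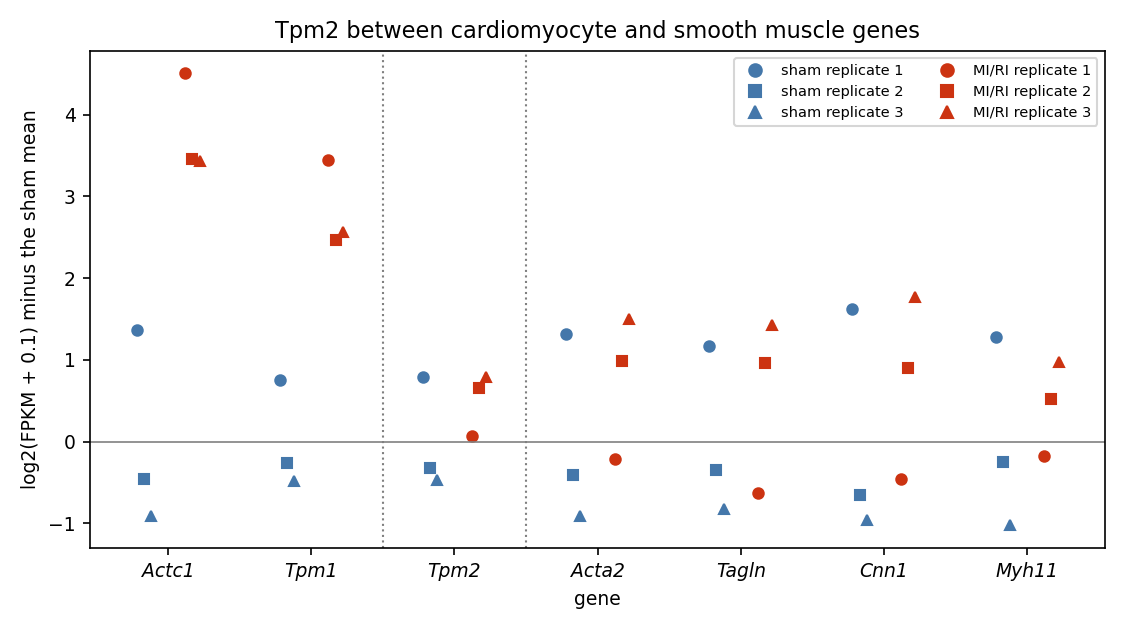
Log2(FPKM + 0.1) minus the sham mean of each gene, for cardiomyocyte genes (Actc1, Tpm1), Tpm2 and smooth muscle genes (Acta2, Tagln, Cnn1, Myh11), with one point for each of the 6 samples. Actc1 and Tpm1 separate MI/RI from sham, whereas in Tpm2 and the smooth muscle genes MI/RI replicate 1 lies below sham replicate 1 and within reach of the sham samples.

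Both pointed-end genes rose from low levels, and in them sham replicate 1 was close to the other sham samples. Lmod2 (ENSRNOG00000045831), the cardiac leiomodin that lengthens the filament, was at 17.8, 14.4 and 14.6 FPKM in sham and at 107, 71.4 and 38.5 FPKM in MI/RI (log2 fold change 2.09, SE 0.35, limma adjusted p = 0.0038). Tmod1 (ENSRNOG00000009761), the capping protein that opposes it, was at 3.06, 3.08 and 2.30 FPKM in sham and at 24.4, 9.63 and 9.98 FPKM in MI/RI (log2 fold change 2.21, SE 0.35, limma adjusted p = 0.0035). Sham replicate 1 was 1.23 times the mean of the other sham samples for Lmod2 and 1.14 times for Tmod1, against 2.18 to 6.55 times for the other 8 genes. The Lmod2 to Tmod1 ratio lay between 4.66 and 6.33 in sham and between 3.86 and 7.41 in MI/RI, so the ranges overlapped (difference of -0.15 on the log2 scale, exact permutation p = 0.7, adjusted p = 0.8 over 8 ratios).

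The order of the 10 levels by mean FPKM was the same in both groups, from Tnni3 through Tnnt2, Actc1, Tnnc1, Tpm1, Acta1, Lmod2, Tpm2 and Tmod1 to Tnni1. Within single samples, each gene exceeded the next in all 3 sham samples, except for Lmod2 over Tpm2 (2 of 3). In MI/RI the exceptions were Tnnt2 over Actc1 and Tpm2 over Tmod1 (2 of 3 each). Taken across samples, the ranges of neighbours in sham overlapped except between Acta1 and Lmod2, between Tpm2 and Tmod1 and between Tmod1 and Tnni1. In MI/RI they overlapped except between Actc1 and Tnnc1, Acta1 and Lmod2, Lmod2 and Tpm2, and Tmod1 and Tnni1. Actc1 exceeded Tnnt2 in 1 of the 3 MI/RI samples and in none of the sham samples.

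Actc1 made up a larger share of the pool in every MI/RI sample than in every sham sample. Of the summed FPKM of the 10 genes, Actc1 made up 10.98%, 8.35% and 6.53% in sham and 26.7%, 20.2% and 20.04% in MI/RI. Tnni3 made up 50.5%, 47.9% and 56.3% in sham and 30.8%, 41.3% and 39.0% in MI/RI. The Tnni3 to Actc1 ratio accordingly went from 4.60, 5.74 and 8.62 in sham to 1.15, 2.04 and 1.94 in MI/RI, 3.68-fold lower with no overlap (exact permutation p = 0.1, adjusted p = 0.16 over 8 ratios). The Tpm1 to Actc1 ratio was also lower, at 0.230 to 0.265 in MI/RI against 0.313 to 0.646 in sham (exact permutation p = 0.1, adjusted p = 0.16 over 8 ratios). The Tnni1 to Tnni3 ratio overlapped between the groups (-0.26 on the log2 scale, exact permutation p = 0.8, adjusted p = 0.8 over 8 ratios), and with a pseudocount of 1, which is near the level of Tnni1, the difference was -1.27 (exact permutation p = 0.1). Of the 8 ratios, 5 did not overlap between the groups, and the share among other pairs of genes was not computed. These are not separate results, since Acta1/Actc1, Tpm1/Actc1 and Tnni3/Actc1 share Actc1, and Tnnc1/Tnni3 and Tnni3/Actc1 share Tnni3.

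**Figure D3:**
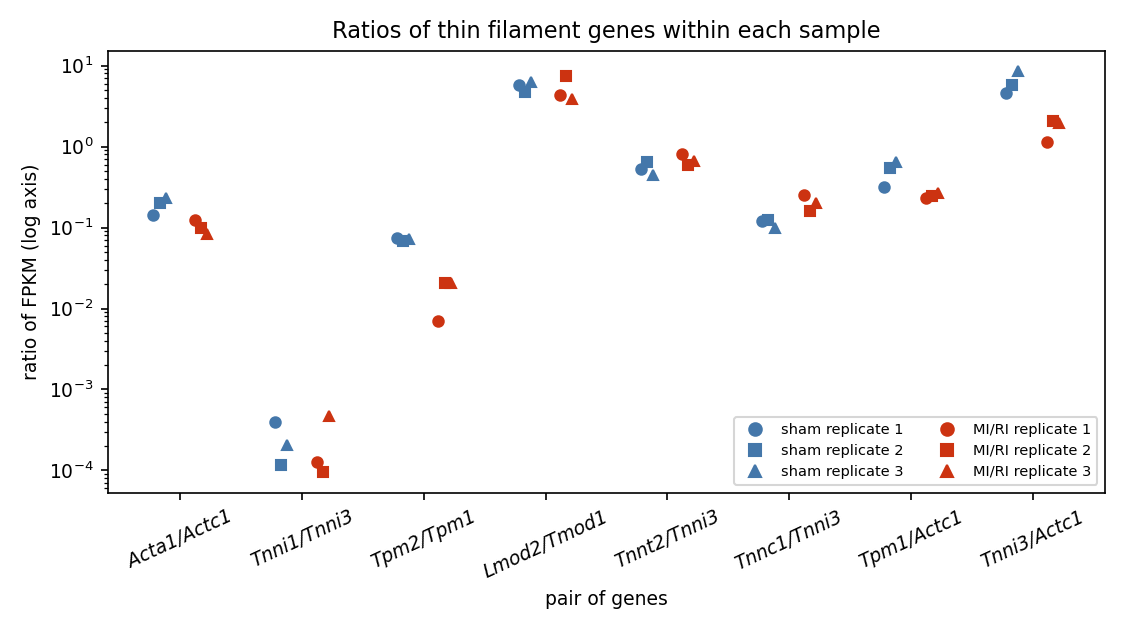
Ratios of FPKM between thin filament genes within each sample (logarithmic axis, blue for sham, red for MI/RI). Acta1/Actc1, Tpm2/Tpm1, Tpm1/Actc1 and Tnni3/Actc1 are lower in every MI/RI sample than in every sham sample, Tnnc1/Tnni3 is higher in every MI/RI sample, and the other ratios overlap.

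The share of mitochondrially encoded mRNAs moved with the groups, and the values were therefore also set against other denominators. The 10 genes together made up 4.30%, 2.15% and 2.07% of the FPKM outside mitochondrially encoded mRNAs in sham and 10.001%, 7.40% and 7.49% in MI/RI. With the values rescaled to those other genes, the same 8 genes passed, with log2 fold changes from 1.13 for Tnni3 (limma adjusted p = 0.024) to 3.01 for Actc1 (limma adjusted p = 0.00043). So rescaled, 793 of all 10942 genes tested were higher and 2857 were lower. With the values centred instead on 11 cardiomyocyte genes outside the sarcomere, such as the myoglobin gene Mb, 1 of the 10 was higher and 1 was lower. Of all 10942 genes tested, 46 were higher and 8958 were lower when so centred. Actc1 was higher by 1.70 on the log2 scale (SE 0.42, limma adjusted p = 0.00017), and Tpm2 fell by 1.59 (limma adjusted p = 0.00056). On that scale Acta1 was at 0.80 (limma adjusted p = 0.051), Tpm1 at 0.73 (limma adjusted p = 0.082) and Tnnc1 at 0.63 (limma adjusted p = 0.14). Tnnt2 was at 0.18, Tmod1 at 0.11, Lmod2 at -0.0033 and Tnni3 at -0.18, with limma adjusted p from 0.70 to 0.99.

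**Figure D4:**
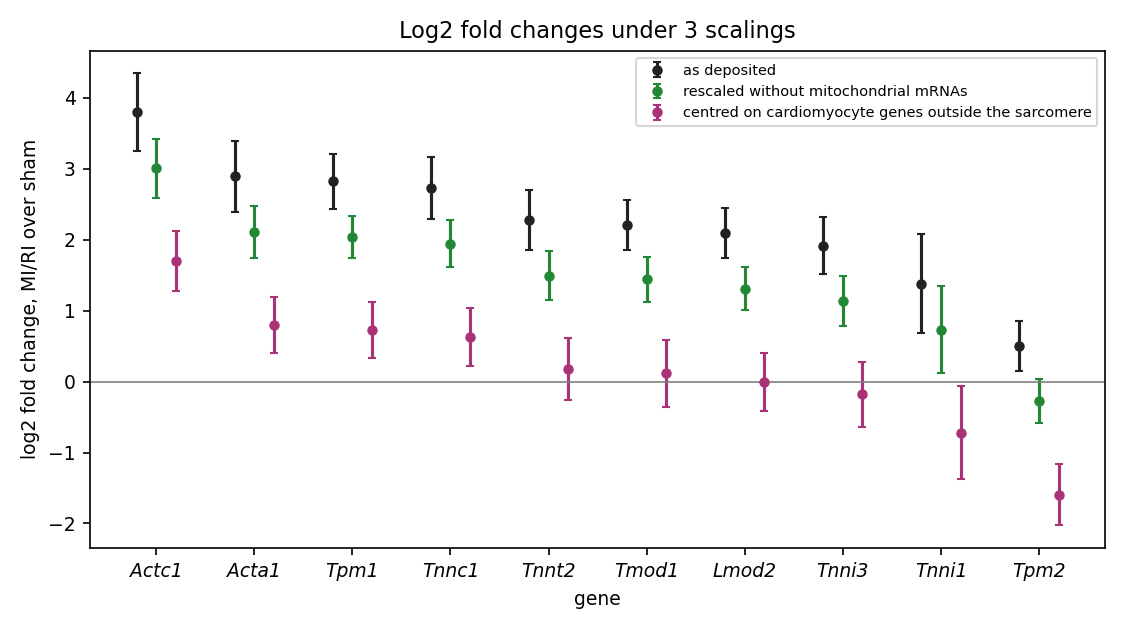
Log2 fold change of each thin filament gene (MI/RI minus sham) with the FPKM as deposited, after rescaling to genes other than mitochondrially encoded mRNAs, and after centring on cardiomyocyte genes outside the sarcomere (error bars, SE from limma). The first 2 scalings place 8 genes well above 0, whereas after centring on cardiomyocyte genes Actc1 stays above 0, Tpm2 lies below it and the rest lie closer to 0.

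Other thin filament genes and paralogs gave a mixed picture. Of 25 listed, 22 were tested, 13 were higher, none was lower (limma, with 2 lower at an unadjusted p of 0.05), and the median log2 fold change was 0.84. After quantile normalization 7 were higher and 1 was lower, against 1441 and 1559 of all 10942 genes tested. Without mitochondrially encoded mRNAs 8 were higher and 3 were lower, against 793 and 2857 of all genes tested. Lmod3, a further leiomodin, had the highest log2 fold change (3.21, SE 0.55, limma adjusted p = 0.0042), with 2.55, 0.619 and 0.770 FPKM in sham and 22.6, 5.97 and 9.51 FPKM in MI/RI. The cytoplasmic actins also rose, since Actb went from 337 ± 16.0 to 548 ± 67.1 FPKM (SD, n = 3, limma adjusted p = 0.044) while Actg1 went from 32.6 ± 8.96 to 119 ± 36.0 FPKM (SD, n = 3, limma adjusted p = 0.0038). Actb did not keep that direction under other scalings (-0.28 after quantile normalization and -0.09 after rescaling without mitochondrially encoded mRNAs). Actg1 was at 0.84 after quantile normalization (limma adjusted p = 0.062) and at 1.07 without mitochondrially encoded mRNAs (limma adjusted p = 0.015). Tpm4, a non-muscle tropomyosin, rose by 1.12 on the log2 scale (limma adjusted p = 0.011). It was at 0.018 after quantile normalization (limma adjusted p = 0.97) and at 0.34 without mitochondrially encoded mRNAs (limma adjusted p = 0.39). Fast skeletal troponin T, Tnnt3, was lowest at -1.15 and did not pass (limma adjusted p = 0.11, or 0.026 with the replicate number as a block). Centred on cardiomyocyte genes outside the sarcomere, 1 gene of this list was higher and 13 were lower, and Tpm4 was at -0.98. On that scale 8958 of all 10942 genes tested were lower.

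The rest of the sarcomere and the cardiomyocyte were described by the same counts. Of 10 thick filament genes tested, 6 were higher and none was lower (median log2 fold change 1.47), with Myh6, the main rodent ventricular myosin heavy chain, at 2.68 (limma adjusted p = 0.0035), Myl3 at 2.76 (limma adjusted p = 0.0037), Myl2 at 1.83 (limma adjusted p = 0.020) and Myh7 at 0.42 (limma adjusted p = 0.67). Of 11 Z-disc and titin genes tested, 8 were higher and none was lower (median 1.51). There Actn2, which anchors the thin filament at its barbed end, was at 2.46 (limma adjusted p = 0.0041), Csrp3 at 2.39 (limma adjusted p = 0.0037), and Tcap at 1.92 (limma adjusted p = 0.023), while Nexn, an actin-binding Z-disc gene, was at -0.30 (limma adjusted p = 0.35). Of 11 cardiomyocyte genes outside the sarcomere, 10 were higher and none was lower (median 2.20). Myoglobin Mb was at 2.55 (limma adjusted p = 0.0043) and the fatty acid carrier Fabp3 at 2.67 (limma adjusted p = 0.0031). Without sham replicate 1, 8 of the thick filament genes were higher and Myh7 was at 1.43 (limma adjusted p = 0.010), whereas 3 were higher without sham replicate 2 and 3 without sham replicate 3. For the Z-disc list these counts were 9, 5 and 5, and centring on cardiomyocyte genes left none higher in either list, with 5 and 3 lower. That centring made 8958 of all 10942 genes tested lower. After quantile normalization 3 thick filament genes were higher and none was lower, and 4 Z-disc genes were higher and 1 was lower. Without mitochondrially encoded mRNAs these counts were 3 and none for the thick filament and 3 and 2 for the Z-disc. The other cardiomyocyte list had 8 higher under both scalings. Over all genes tested 1441 and 793 were higher, and 1559 and 2857 were lower. Without a test, the 10 thin filament genes were set against these lists by mean log2 value. They lay further above the thick filament list in MI/RI than in sham by 0.63. For the Z-disc list this difference was 0.89, and for the other cardiomyocyte genes it was 0.17. Only for the last did the samples overlap between the groups (0.508, 0.0063 and 0.370 in sham, 0.329, 0.425 and 0.625 in MI/RI).

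**Figure D5:**
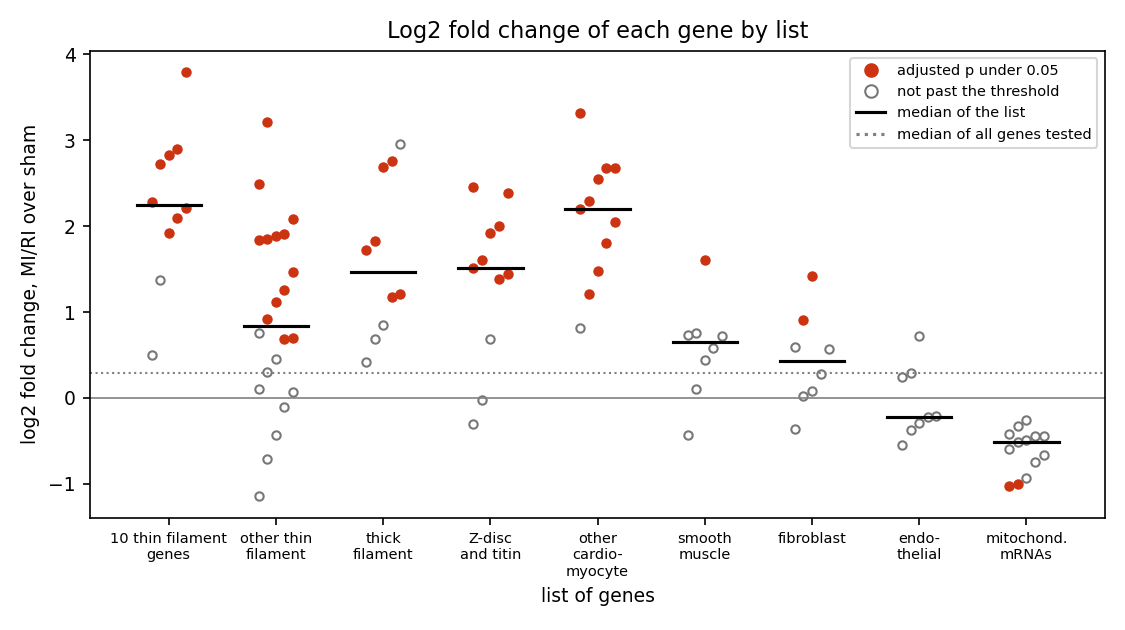
Log2 fold change (MI/RI minus sham) of the genes of each list, in red where the limma adjusted p was under 0.05 and open where it was not, with a black bar for the list median and a dotted line at 0.29 for the median of all genes tested. The medians are 2.24 for the 10 thin filament genes, 2.20 for cardiomyocyte genes outside the sarcomere, and 1.47 and 1.51 for the thick filament and the Z-disc.

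Of the transcription factors known to drive sarcomere genes, 10 of 12 were tested, 4 were higher and none was lower (median log2 fold change 0.67). Srf, the CArG-binding factor, was at 2.22, 2.66 and 2.09 FPKM in sham and at 12.0, 11.9 and 7.27 FPKM in MI/RI (log2 fold change 2.08, SE 0.26, limma adjusted p = 0.0017). Unlike Actc1, Srf was not high in sham replicate 1. Nkx2-5, a cardiac homeobox factor, was at 9.62, 3.55 and 3.43 FPKM in sham and at 52.8, 20.2 and 21.0 FPKM in MI/RI (log2 fold change 2.498, limma adjusted p = 0.0054). Mrtfa, an actin-sensing partner of SRF, was at 0.0066 (limma adjusted p = 0.99), and Hand2, a ventricular factor, was at 0.74 (limma adjusted p = 0.18). Without sham replicate 3, or without MI/RI replicate 1, 2 of these factors were higher, and centred on cardiomyocyte genes none was higher and 6 were lower. Of all 10942 genes tested, 8958 were lower when so centred. Among 8 fetal or load-responsive genes 4 were higher and none was lower, with Ankrd1 at 2.04 (limma adjusted p = 0.0049), and 6 were higher without sham replicate 1. Centred on cardiomyocyte genes, 1 of these 8 was higher and 3 were lower, and Ankrd1 was at -0.06.

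Markers of the other cells in the tissue were read beside these results. With the values as deposited, 25.5% of all 10942 genes tested were higher and 7.36% were lower, and the marker counts are to be read beside these shares. Of the same genes, 1441 were higher and 1559 lower after quantile normalization, and 793 and 2857 without mitochondrially encoded mRNAs. Centred on cardiomyocyte genes, 46 of all genes tested were higher and 8958 lower, which the counts below have to be read against. None of 8 endothelial markers passed limma in either direction (median log2 fold change -0.22), with 1 higher and 1 lower at an unadjusted p of 0.05, and with 1 higher under the replicate block and without sham replicate 2. With a pseudocount of 1 and after rescaling to TPM 1 of these markers was also higher. With a filter at a mean of 5 FPKM 1 was higher and 1 was lower. Their summed FPKM was 200 to 255 in sham and 197 to 228 in MI/RI. Under scalings other than TPM some or all of them were lower, 1 after median centring, 7 after quantile normalization, 5 after rescaling without mitochondrially encoded mRNAs and 8 when centred on cardiomyocyte genes. Of 8 fibroblast markers 2 were higher (median 0.42), or 1 without sham replicate 3 and 1 without MI/RI replicate 3, with a summed FPKM of 596 to 792 in sham and 821 to 878 in MI/RI. The fibroblast counts became none higher and 2 lower after quantile normalization and after rescaling without mitochondrially encoded mRNAs. They became none higher and 7 lower when centred on cardiomyocyte genes. Of 8 smooth muscle markers 1 was higher, which was Des, and 2 were higher without sham replicate 1 and with the replicate block. None was higher when sham replicate 2, sham replicate 3 or MI/RI replicate 1 was left out, with no filter, after median centring or quantile normalization, or without mitochondrially encoded mRNAs (1 lower), and 7 were lower when centred on cardiomyocyte genes. Of 6 neutrophil and monocyte markers tested, 3 were higher and 1 was lower (median 1.31), and the list summed to 16.8 to 20.2 FPKM in sham and 33.6 to 86.4 FPKM in MI/RI, with Mpo at 0 in all samples. After quantile normalization and without mitochondrially encoded mRNAs 1 was higher and 1 lower, and centred on cardiomyocyte genes none was higher and 2 were lower. None of 4 red blood cell markers passed limma (1 was lower at an unadjusted p of 0.05), and their summed FPKM was 1141 to 1239 in sham and 620 to 1783 in MI/RI. Of these 4, 2 were lower after quantile normalization and without mitochondrially encoded mRNAs, and 4 were lower when centred on cardiomyocyte genes. Their part in the thin filament results was not tested.

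The genes whose profile over the 6 samples was most like the mean centred profile of the 10 were sought next. The search covered 3686 genes with a mean of at least 5 FPKM that were in none of the lists used here. Genes of the sarcomere, cardiomyocyte and marker lists were therefore not compared. The nearest were Timm10, a mitochondrial import chaperone, at a root mean square log2 distance of 0.0704, Fxyd1, the phospholemman gene, at 0.0846, the glycolytic enzyme gene Gapdh at 0.0928, Taf3 at 0.0935 and the co-chaperone gene Bag3 at 0.0954. Bag3 was at 30.0, 13.6 and 11.9 FPKM in sham and at 116, 76.3 and 68.5 FPKM in MI/RI, with sham replicate 1 the highest sham sample and MI/RI replicate 1 the highest MI/RI sample. This likeness is a description over 6 samples.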

How the data were processed

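RNA from 3 sham and 3 MI/RI samples of rat myocardium was sequenced from stranded total RNA libraries. The authors deposited FPKM values, scaled to gene length and library size, and their submitters' processing notes name STAR and HTSeq, with versions, build, annotation and strand setting not given in the sources used here. The 10 thin filament genes, the other gene lists and the tests were chosen with earlier results of these data known, and the 2 samples left out together and the sum of smooth muscle markers without Des were chosen after seeing the data.

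Rows of 1 symbol were summed. Log2(FPKM + 0.1) was tested with limma 3.58.1 in R 4.3.3 (intensity trend, no block) over 10942 genes with a mean of at least 0.5 FPKM, with Benjamini-Hochberg adjustment and a threshold of 0.05, after the fit had been tested on simulated data. Ratios and single genes were compared with two-sided exact permutation tests (scipy 1.17.1). Genes outside the 10 were named by rule: the 3 of each list with the highest mean FPKM, the ends of the log2 fold changes in the thin filament, thick filament, Z-disc and transcription factor lists, and the 5 nearest profiles. Not every gene so chosen is described, and Srf, Des, Cnn1, Myh11, Mpo and Myh4 appear also as list members or markers chosen with their values seen. Lists overlap in a few genes, such as Acta2, Csrp3 and Myh7. Among rows under 0.05 FPKM, 99.8% of 616 stepped in whole fragments (tolerance 0.02), which gave the relative depth. Absolute depth is unknown, since FPKM carries no counts. The labels number the replicates without saying that they pair. Same-numbered deviations from the group means correlated at 0.203, 0.117 and 0.118. The alternatives were other pseudocounts, filters, scalings, row choices and limma settings, a replicate block and leaving out samples.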

Additional observations from a re-analysis of the deposited data

How the results depend on the processing

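Of the 8 genes past the threshold (Actc1, Acta1, Tnnt2, Tnni3, Tnnc1, Tpm1, Lmod2, Tmod1), Actc1 stayed past it in all alternatives. The others stayed past it in all except centring on cardiomyocyte genes and, for Tnni3, no filter on low values. Centring on cardiomyocyte genes outside the sarcomere left 1 of the 10 genes higher (Actc1) and 1 lower (Tpm2), with 46 genes higher and 8958 lower in all. It turned the sign of Tnni3 (-0.18), Tnni1 (-0.72), Tpm2 (-1.59) and Lmod2 (-0.0033). Tpm2 also turned to -0.14 after quantile normalization and to -0.27 after rescaling without mitochondrially encoded mRNAs. Over all genes, 2790 higher and 805 lower became 1441 and 1559 after quantile normalization and 793 and 2857 without mitochondrially encoded mRNAs. Centring on the median gave 2020 higher and 1554 lower, and TPM gave 3449 and 504. With a filter at a mean of 5 FPKM, 166 of 3784 genes were lower. Leaving out each sample in turn gave 1526 to 2567 genes higher and 305 to 880 lower, with the fewest higher without sham replicate 3 and the fewest lower without sham replicate 2 (348 lower without sham replicate 3). Over these settings the median over the genes tested, 0.29 as reported, ran from -1.81 to 0.66. Centring on the median or on cardiomyocyte genes takes the same value from every gene of a sample. Each centring therefore shifts all log2 fold changes by the same amount. The cause of the other differences was not tested.

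The Tnni1 to Tnni3 difference ran from -0.96 to 0.19 when each sample was left out (-0.54 and -1.27 with pseudocounts of 0.1 and 1), and that of Lmod2 to Tmod1 from -0.43 to 0.038. The Lmod2 to Tmod1 difference was also 0.11 with a pseudocount of 1 and 0.071 without sham replicate 1 and MI/RI replicate 3 together, and the cause was not tested. The other 6 ratios kept their sign throughout.

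With the replicate number as a block, 8 of the 10 genes were higher, 3085 genes were higher and 895 lower in all, and no call among the 10 changed. The block moved the atrial and smooth muscle markers from 1 to 2 higher, the endothelial markers from 0 to 1, thick filament genes from 6 to 7 (Myl7, limma adjusted p = 0.027), Z-disc genes from 8 to 9 and fetal genes from 4 to 5. Also 1 more gene was lower in the other thin filament list and in the skeletal muscle list (Tnnt3 in both), and mitochondrially encoded mRNAs went from 2 to 3 lower. With the numbers paired, the ratio tests cannot give an exact p below 0.25. The low levels of Tnni1 limit its precision, since sham replicate 2 held the equivalent of 9 fragments.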
